A study of Drosophila melanogaster with 8 samples.

Results

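The subunits of the respiratory chain and of ATP synthase were followed in fly heads after treatment with a convulsant and an antiepileptic drug. Members were all genes whose current symbol begins with ND- (complex I), Sdh followed by A to D (complex II), UQCR- (complex III), COX (complex IV) or ATPsyn (ATP synthase), together with levy, a complex IV subunit of the COX6A family. The rule used names only and no measured value. Of 91 genes in the RefSeq table whose symbols match it, 41 were named on the array, among 6793 named genes in all. They were 18 of 40 complex I genes, 6 of 7 of complex II, 1 of 9 of complex III, 6 of 20 of complex IV and 10 of 15 of ATP synthase. Complex III was thus represented by UQCR-6.4 alone, and 10 of the 41 were paralogs with the suffix L, such as COX6AL. None of the 13 subunits encoded by mitochondrial DNA was named on the array.

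Respiratory complexes pass electrons from NADH (complex I) and succinate (complex II) through complex III to oxygen (complex IV), and complexes I, III and IV pump protons across the inner mitochondrial membrane. ATP synthase uses the return flow of protons to make ATP. Neurons, and fly photoreceptors in particular, depend heavily on this supply to restore ion gradients after electrical activity.

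Heads came from unmated males of the wild-type strain Oregon-R, 3 to 4 days old at the start and kept at 24 degrees. In the day 14 group, flies received food with pentylenetetrazole for 7 days, food with sodium valproate for 3 days and normal food for 4 days. In the day 10 group, heads were taken at the end of the same pentylenetetrazole and valproate feeding. Control flies ate normal food throughout and were collected beside each treated set. Pentylenetetrazole is a convulsant that blocks GABA-A receptors. Valproate is used against seizures and is also a histone deacetylase inhibitor. The doses are not settled: for pentylenetetrazole, 8 mg/ml stands in the sample labels and 0.33 mg/ml in the series text, and for valproate 0.33 and 24 mg/ml. Each of the 4 arrays per day set RNA from a pool of treated heads against RNA from a pool of control heads, and dyes were swapped on replicates 3 and 4. According to the series text the sets are biological replicates and every vial began with 30 flies.

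Values are log2 ratios of treated over control RNA, so they compare RNA of the same gene and give no level. In whole heads, fewer cells of a type and less RNA per cell cannot be told apart. The direction rests on reading the deposited value as Cy5 over Cy3, which was not stated, and with the opposite reading every sign below would turn. Among 27648 spots per slide, those with a value numbered 11208 to 14421 at day 14, with an SD of 0.33 to 0.43. At day 10 they numbered 13524 to 19905, with an SD of 0.52 to 0.86. Duplicate spots of a subunit clone differed by a median of 0.10 to 0.14 at day 14 and 0.11 to 0.25 at day 10. Only 1 of 8 neuronal markers, nSyb, was named on the array, against 5 of 8 photoreceptor, 5 of 7 glial and 8 of 9 fat body markers. A gene was tested on a day when at least 3 of its 4 arrays had a value, which left 29 of the 41 subunits for day 14, 35 for day 10 and 26 for comparing the days. ND-24L, ND-75 and ATPsynGL were tested on neither day. The number of arrays limits the precision.

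**Figure D1:**
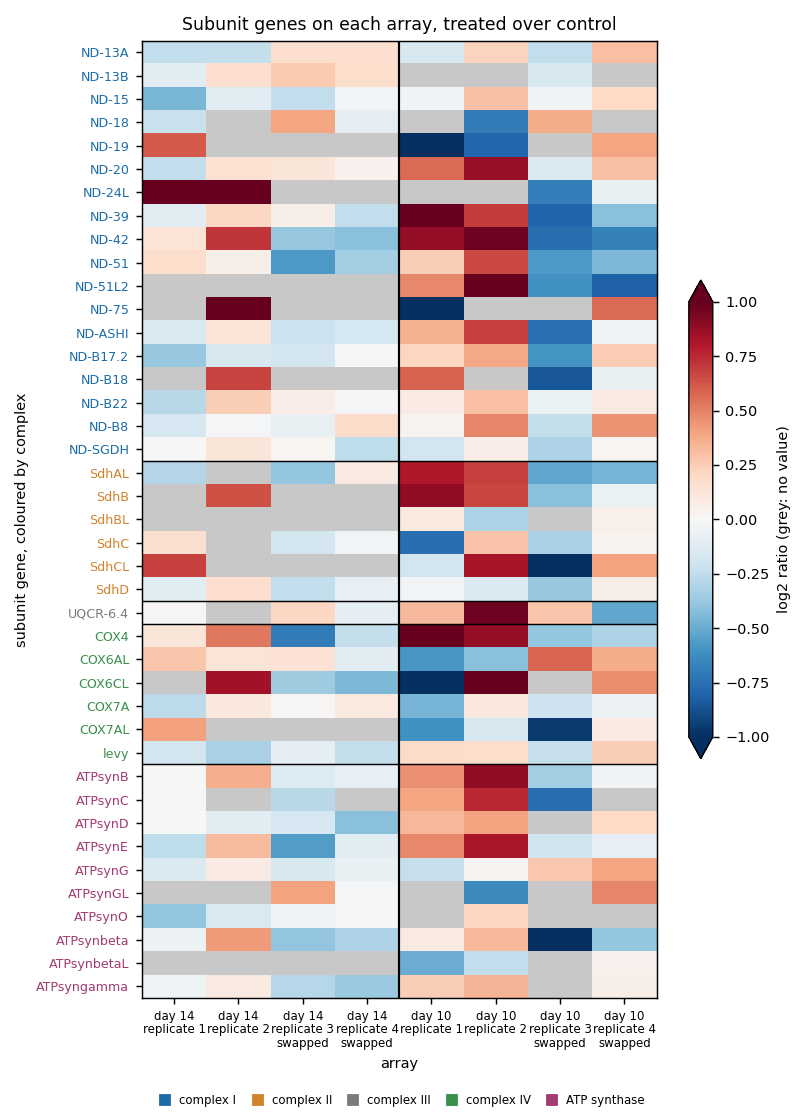
Log2 ratio of treated over control RNA for the 41 subunit genes (rows, grouped and coloured by complex) on the 4 day 14 and the 4 day 10 arrays (columns), with swapped arrays turned and grey for no value. The colour scale ends at -1 and 1. Most rows change colour between arrays of the same day, and day 10 replicate 3 is below 0 for 28 of its 32 subunits.

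Spread between arrays was larger than the subunits' average shift. The median over the measured subunits was -0.10, 0.15, -0.16 and -0.09 on day 14 replicates 1 to 4. On day 10 replicates 1 to 4 it was 0.14, 0.34, -0.36 and 0.05. Replicate 2 stood above the other day 14 arrays, with 22 of 29 subunits above 0, and replicate 3 stood below the other day 10 arrays, with 4 of 32 above 0. The mean of these medians was -0.05 ± 0.14 at day 14 and 0.04 ± 0.30 at day 10 (SD, n = 4 arrays each), and the 2 ranges overlapped. With the 20 subunits that had values on all 8 arrays, the means were -0.07 ± 0.13 and 0.07 ± 0.26.

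**Figure D2:**
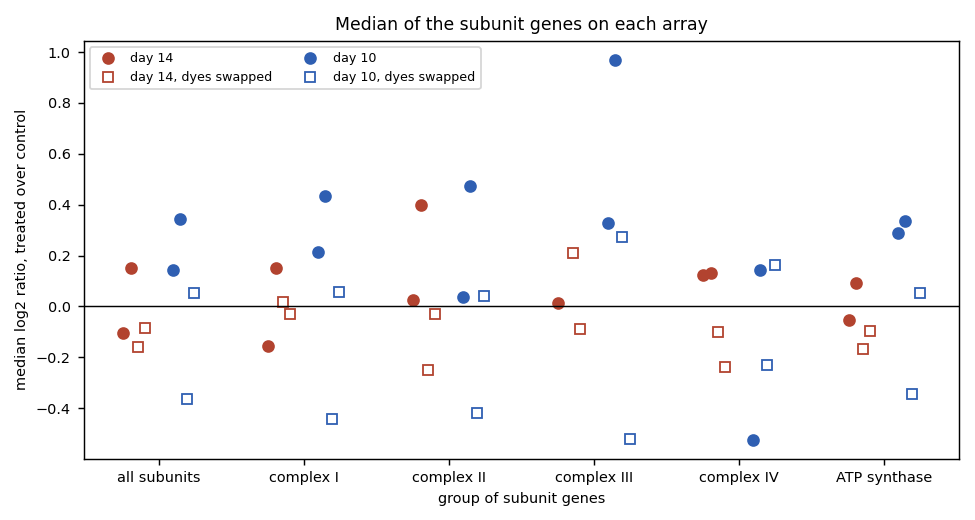
Median log2 ratio of the subunit genes on each array, for all subunits and by complex (x axis), with day 14 left of day 10 and open squares for arrays with swapped dyes. Complex III is 1 gene, UQCR-6.4. Within every complex the arrays of a day lie on both sides of 0.

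At day 14, after the return to normal food, the fitted ratios of the subunits lay mostly just below 0, and none passed the test. Of the 29 tested, 21 were below 0 and the median was -0.07, against 51.6% of named genes below 0 and a median of -0.01 over them. The lowest was ND-15 at -0.21 and the highest ND-13B at 0.13. limma called 0 subunits and 0% of the 7529 features at an adjusted p of 0.05. At an unadjusted p under 0.05 there were 0 subunits and 3.98% of features (1.42% higher, 2.56% lower). This fit shared its estimate of spread with the day 10 arrays. With each day fitted alone, 70 features and 0 subunits were called, and 11.8% of features and 0 subunits had an unadjusted p under 0.05. In the main fit without replicate 1, 11 of 25 tested subunits were below 0, with a median of 0.01. That fit has replicate 2 as its only unswapped day 14 array, and the dye term then weights the arrays unequally. On the single arrays, 22 of 33, 20 of 31 and 22 of 30 subunits were below 0 on replicates 1, 3 and 4. On replicate 2 it was 7 of 29. With swapped arrays left at their deposited sign and no dye term, 12 of 29 were below 0 and 17 above, so the direction of the count depends on how those arrays are read. Without array centring 26 of 29 were below 0 and the median of all named genes was -0.09.

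At day 10, at the end of valproate, the subunits were spread to both sides of 0. Of the 35 tested, 22 were above 0 and 13 below, with a median of 0.07 against 0.04 over named genes, of which 43.4% were below 0. With the sign as deposited and no dye term the counts were 27 above and 8 below. Without array centring they were 17 above and 18 below. With medians over areas of the slide (print blocks) subtracted, they were 18 above and 17 below. Adjusted p values under 0.05 were reached by 0 subunits and by 0% of 11509 features in limma. ND-20 and COX4, both higher, had an unadjusted p under 0.05, against 6.67% of features (3.74% higher, 2.94% lower). In only 2 of the 35, ATPsynD and ATPsyngamma, was the fitted ratio larger than the SD between the arrays, and at day 14 in 3 of 29 (ND-B17.2, levy and ND-15). The SD of a subunit between arrays had a median of 0.18 at day 14 and 0.48 at day 10. These SDs were taken before the dye term and so include any dye effect.

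In the direct difference, day 14 minus day 10, 20 of 26 subunits were below 0 with a median of -0.17, against 55.6% of named genes and a median of -0.04. By complex, 10 of 11 complex I subunits (median -0.17), 1 of 3 of complex II (0.05), the 1 of complex III (-0.14), 3 of 5 of complex IV (-0.02) and 5 of 6 of ATP synthase (-0.26) were below 0. Of the 26, 13 were below 0 at day 14 and above 0 at day 10, 6 were below on both days, 6 above on both, and 1 ran the other way. 0 subunits and 0% of 6419 features passed limma's adjusted threshold, and 1 subunit (ATPsynD, lower) and 6.26% of features (2.46% higher, 3.8% lower) had an unadjusted p under 0.05. Leaving out day 10 replicate 2 brought the median to -0.03, with 14 of 23 subunits below 0, against -0.04 over named genes.

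**Figure D3:**
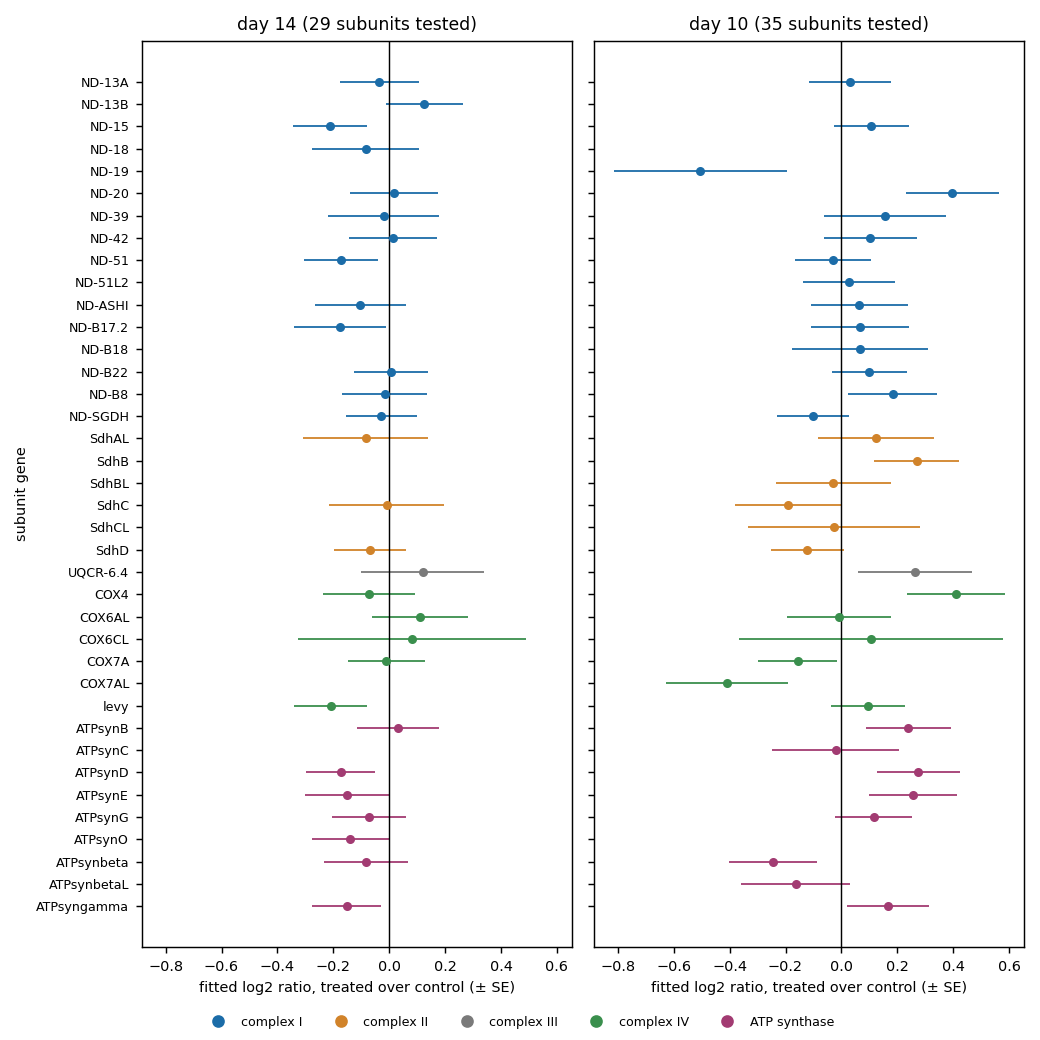
Fitted log2 ratio of treated over control RNA with its standard error (limma) for each tested subunit at day 14 (left, 29 genes) and day 10 (right, 35 genes), coloured by complex. At day 14 points lie between -0.21 and 0.13, and at day 10 between -0.50 and 0.41. None passed the adjusted threshold.

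Complex I takes electrons from NADH through a flavin and a chain of iron-sulphur clusters. Its 13 tested subunits had a median of -0.03 at day 14, with 9 below 0, and its 14 tested at day 10 had a median of 0.07, with 11 above 0. ND-20 (CG9172), the fly form of the core subunit next to the quinone site, had ratios of -0.25, 0.15, 0.12 and 0.04 on day 14 replicates 1 to 4. On the day 10 arrays they were 0.57, 0.87, -0.14 and 0.29. The days overlapped, and replicate 3 was the only day 10 array below 0. The fit gave 0.02 ± 0.16 at day 14 and 0.40 ± 0.17 at day 10 (SE, n = 4 each). limma's unadjusted p at day 10 was 0.042 and its adjusted p 0.73. Without replicate 2 the day 10 ratio was 0.26.

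ND-15 (CG11455), an accessory subunit, was below 0 on all day 14 arrays, at -0.46, -0.11, -0.25 and -0.03. At day 10 it was -0.03, 0.29, -0.03 and 0.20, so that the days overlapped. Its fitted ratios were -0.21 ± 0.13 and 0.11 ± 0.13 (SE, n = 4 each), with adjusted p values of 1.00 and 0.82 in limma. ND-51 (CG9140), which carries the flavin site where NADH is oxidised, was at 0.17, 0.06, -0.58 and -0.35 at day 14 and at 0.24, 0.66, -0.57 and -0.45 at day 10. On both days the unswapped arrays, averaged over the clones with a value, were above 0 and the swapped ones below. On day 10 replicate 1 its 2 clones disagreed, at -0.24 and 0.73. On the other day 10 arrays both had the sign of their average. The day 14 replicate 2 and replicate 4 values came from 1 clone. Its duplicate spots disagreed in sign, at -0.09 and 0.21 on replicate 2 and at 0.20 and -0.90 on replicate 4.

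The same division by dye was wider in ND-42 (CG6343), an accessory subunit. Its ratios were 0.14, 0.72, -0.38 and -0.42 at day 14 and 0.88, 0.97, -0.76 and -0.67 at day 10. ND-39 (CG6020), also accessory, was at -0.11, 0.21, 0.06 and -0.24 at day 14, and at 1.13, 0.70, -0.79 and -0.42 at day 10. For ND-39 the division was present at day 10 but not at day 14. ND-42 and ND-39 were chosen for mention after their values were seen.

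The lowest complex I value was that of ND-19 (CG3683), an accessory subunit, at -0.50 ± 0.31 at day 10 (SE, n = 3). Its arrays stood at -2.02, -0.79 and 0.40, with no value on replicate 3, and 1 array at day 14 gave 0.62. Its 2 clones were at -0.84 and -3.20 on replicate 1, so most of that array's value came from 1 clone. ND-75, the largest core subunit, had a ratio of -4.02 on day 10 replicate 1 and 0.57 on replicate 4, too few arrays for a test.

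Complex II, succinate dehydrogenase, is also an enzyme of the citric acid cycle. Its 3 tested members had a median of -0.07 at day 14, with 3 below 0. The 6 tested at day 10 had a median of -0.03, with 4 below 0. SdhB (CG3283), its iron-sulphur subunit, had a single day 14 value of 0.64 and day 10 values of 0.89, 0.67, -0.42 and -0.06. The day 10 fit was 0.27 ± 0.15 (SE, n = 4, adjusted p = 0.73 in limma), with the swapped arrays below 0. SdhD (CG10219), a membrane anchor, was at -0.11, 0.17, -0.25 and -0.08 at day 14 and at -0.02, -0.14, -0.38 and 0.06 at day 10. The fits were -0.07 ± 0.13 and -0.12 ± 0.13 (SE, n = 4 each), both closer to 0 than their standard error. The 2 clones of SdhD disagreed in sign on day 10 replicate 1 (0.12 and -0.17) and replicate 4 (0.23 and -0.12). Day 10 replicates 2 and 3 each had a value from 1 clone, and not the same one. At day 14 both clones had values on replicates 1 and 3, all below 0, and replicates 2 and 4 rested on 1 clone. Its partner anchor SdhC (CG6666) was at 0.16, -0.18 and -0.03 on the 3 day 14 arrays with a value, and at -0.75, 0.28, -0.33 and 0.03 at day 10. One of its 2 clones had a value on day 10 replicate 1 only, of -1.69, where the other clone read 0.19. With clones counted only on a day where they had at least 3 arrays, a filter chosen after the data were seen, the day 10 ratio of SdhC was 0.04 in place of -0.19. The paralogs SdhAL, SdhBL and SdhCL were at 0.12 ± 0.21, -0.03 ± 0.20 and -0.03 ± 0.31 at day 10 (SE, n = 4, 3 and 4), and of them only SdhAL was tested at day 14, at -0.08 ± 0.22 (n = 3). The day 14 arrays of SdhAL stood at -0.29, -0.39 and 0.09, and with each day fitted alone its value was -0.22.

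UQCR-6.4 (CG14482), the only complex III member, is a small accessory subunit of the cytochrome bc1 complex. It was at 0.02, 0.21 and -0.09 on day 14 replicates 1, 3 and 4, and at 0.33, 0.97, 0.27 and -0.52 at day 10. The fits, 0.12 ± 0.22 (SE, n = 3) and 0.26 ± 0.20 (SE, n = 4), were both within the spread of the arrays. The day 10 ratio was 0.06 without replicate 2 and 0.50 without replicate 4. Cyt-c1, the cytochrome c1 of the same complex, which the naming rule does not take in, was fitted at -0.03 ± 0.13 at day 14 and 0.22 ± 0.14 at day 10 (SE, n = 4 each).

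Complex IV, cytochrome c oxidase, reduces oxygen to water. Its 5 tested members had a median of -0.01 at day 14, with 3 below 0. The 6 tested at day 10 had a median of 0.04, with 3 above 0 and 3 below. COX4 (CG10664), a nuclear-encoded subunit that regulates the enzyme in mammals, was at 0.12, 0.53, -0.70 and -0.24 at day 14 and at 1.46, 0.88, -0.39 and -0.31 at day 10. On both days the 2 unswapped arrays were above 0 and the 2 swapped arrays below. The fitted ratios were -0.07 ± 0.16 and 0.41 ± 0.18 (SE, n = 4 each), with an unadjusted p of 0.045 and an adjusted p of 0.73 in limma at day 10. The SD between the day 10 arrays, before the dye term, was 0.91, larger than the fitted ratio. Without day 10 replicate 1, the highest array, the day 10 ratio was 0.22. COX6AL (CG30093), a paralog of levy, had the opposite division at day 10, with -0.58, -0.42, 0.59 and 0.37. At day 14 COX6AL showed no such division, with 0.28, 0.13, 0.15 and -0.115 and a fit of 0.11 ± 0.17 (SE, n = 4).

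levy (CG17280), whose loss in flies causes paralysis and neurodegeneration, was below 0 on every day 14 array, at -0.18, -0.32, -0.10 and -0.24. At day 10 it was at 0.19, 0.17, -0.23 and 0.24, with replicate 3 apart from the other arrays. That replicate lay among the day 14 values, and the other 3 day 10 arrays lay above all of them. Its fits were -0.21 ± 0.13 and 0.10 ± 0.13 (SE, n = 4 each), and the difference, -0.31 ± 0.19, had an unadjusted p of 0.13 and an adjusted p of 0.78 in limma. The SD between its day 14 arrays was 0.09, and the standard errors rest on a spread shared by both days. COX7AL (CG18193), a paralog of COX7A, was at -0.41 ± 0.22 at day 10 (SE, n = 4), from arrays at -0.61, -0.16, -0.95 and 0.08. It was -0.15 without replicate 3 and -0.67 without replicate 4. The 2 clones of COX7A (CG9603) disagreed, at 0.55 and -0.33 on day 14 replicate 2 and at -0.56 and 0.14 on day 10 replicate 3.

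ATP synthase joins a catalytic head to a membrane rotor through a central stalk and a peripheral stalk. Its 7 tested subunits had a median of -0.14 at day 14, with 6 below 0, and its 8 tested at day 10 had a median of 0.14, with 5 above 0. ATPsynD (CG6030), part of the peripheral stalk, was at -0.0035, -0.11, -0.17 and -0.42 at day 14. At day 10 it was at 0.33, 0.40 and 0.20, with no value on replicate 3, the array on which 28 of 32 subunits were below 0. All day 14 arrays lay below all day 10 arrays with a value, which held for 1 of the 26 subunits and for 2.36% of 2711 named genes. In the other direction the counts were 0 of 26 and 2.21%. The difference was -0.45 ± 0.20 (SE, n = 4 and 3), with an unadjusted p of 0.045 and an adjusted p of 0.77 in limma.

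ATPsyngamma (CG7610), the central stalk, was at -0.04, 0.09, -0.29 and -0.37 at day 14 and at 0.25, 0.34 and 0.06 at day 10, again with no value on replicate 3. Its highest day 14 array overlapped the day 10 arrays, and the difference was -0.32 ± 0.20 (SE, n = 4 and 3). ATPsynE (CG3321), a small subunit of the membrane part, was at -0.26, 0.32, -0.56 and -0.11 at day 14 and at 0.48, 0.82, -0.20 and -0.08 at day 10. The difference of -0.41 ± 0.21 (SE, n = 4 each) had an adjusted p of 0.77 in limma, and the days overlapped. ATPsynbeta (CG11154), the catalytic subunit, was at -0.06, 0.42, -0.39 and -0.31 at day 14 and at 0.09, 0.33, -1.01 and -0.38 at day 10, with both swapped arrays below 0 on each day. It was the only ATP synthase subunit with a difference above 0, at 0.16 ± 0.21 (SE, n = 4 each).

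Few subunits kept one sign over the arrays of a day. Below 0 on all day 14 arrays were ATPsynD, levy and ND-15, 3 of 29 against 10.9% of named genes, and 0 of 29 were above 0 on all, against 8.54%. Above 0 on all day 10 arrays were ATPsynD and ATPsyngamma, 2 of 35 against 6.35%, and 0 of 35 were below 0 on all, against 6.54%. The counts of 3 and 2 lay near the shares of all named genes.

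More subunits kept one sign when the swapped arrays were left at their deposited sign. If those arrays were not turned at deposit, as is assumed here from ratio medians over areas of the slide (print blocks), such a gene followed the dye. If they had been turned, it followed the treatment. At day 10, 13 of 35 were then above 0 on all arrays with a value, against 21.9% of named genes, and 3 of 35 below 0, against 19.6%. The 13 were ATPsynB, ATPsynbeta, ATPsynC, ATPsynE, COX4, ND-39, ND-42, ND-51, ND-51L2, ND-ASHI, ND-B18, SdhAL and SdhB. At day 14 the counts were 5 of 29 (COX4, COX6CL, ND-42, ND-51 and SdhC), against 11.9%, and 1 of 29, ND-13A, against 15.6%. The fitted dye term, Cy5 over Cy3, was above 0 for 21 of 26 subunits, with a median of 0.12. It was above 0 for 1346 of 2711 named genes, with a median of 0.00. Among these 26, ND-42 had the highest, 0.62, and COX4 followed with 0.58, within the range of -0.69 to 0.77 over the 2711 named genes. Of the subunits tested at day 10 only, ND-51L2 had a dye term of 0.73 and ND-19 one of -0.90.

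**Figure D4:**
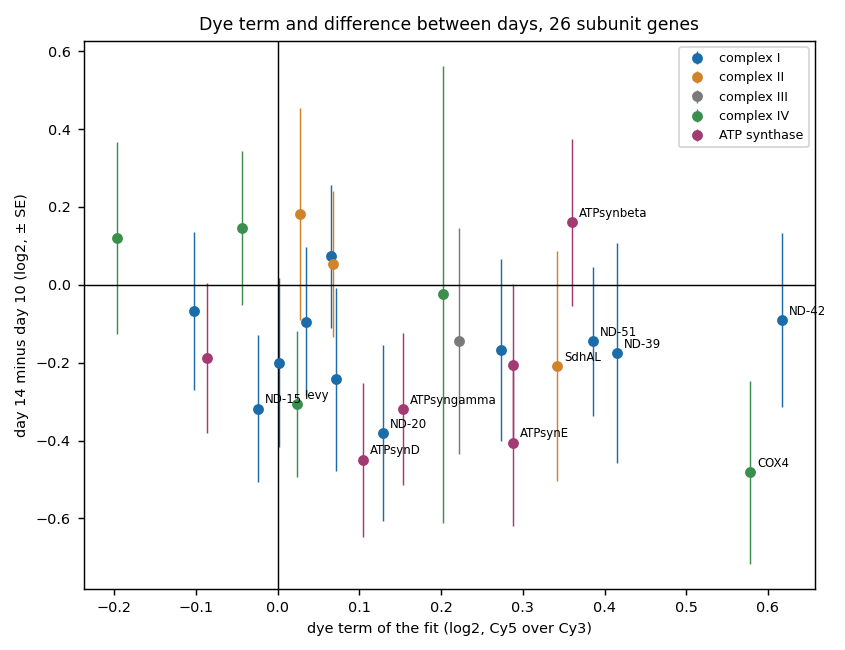
Dye term of the fit (x axis, log2, Cy5 over Cy3) and day 14 minus day 10 difference of the treated over control ratio (y axis, log2, with standard error) for 26 subunit genes, coloured by complex. Of them, 21 have a dye term above 0 and 20 a difference below 0. ND-42 and COX4 lie far to the right.

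Genes that work beside the subunits were also measured, and 0 of them passed limma's adjusted threshold in any comparison. In the difference between the days, 3 of 3 tested genes of the citric acid cycle were below 0 (median -0.32), as were 8 of 8 of glycolysis (-0.29) and 3 of 3 matrix antioxidant genes (-0.20). Prx3, the mitochondrial peroxiredoxin, was at -0.30 ± 0.18 at day 14 and 0.33 ± 0.20 at day 10 (SE, n = 4 each). Its difference of -0.63 ± 0.26 had an adjusted p of 0.77 in limma. The glycerol-3-phosphate dehydrogenase Gpdh1, which feeds electrons toward the chain through the glycerophosphate shuttle, was at -0.55 ± 0.14 and 0.12 ± 0.15 (SE, n = 4 each), with adjusted p values of 0.75 and 0.82. Of the assembly factors and prohibitins, 2 were tested on both days, with opposite signs. Phb2, an inner-membrane scaffold, was at -0.24 ± 0.12 at day 14 and 0.06 ± 0.13 at day 10, with a difference of -0.30 ± 0.18. Bcs1, a complex III assembly factor, was at 0.06 ± 0.12 and -0.19 ± 0.13 (SE, n = 4 each for both genes), with a difference of 0.25 ± 0.18.

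Markers of cell types in the head were measured on the same arrays. At day 14, 5 of 5 tested fat body markers were below 0 (median -0.33), with 2 of 2 glial (-0.37), 4 of 4 photoreceptor (-0.12), 3 of 4 muscle (-0.15) and 1 of 1 haemocyte markers (-0.07). At day 10, 3 of 7 fat body, 4 of 5 glial, 3 of 4 photoreceptor and 5 of 6 muscle markers were below 0. Haemocyte markers (3 of 4, median 0.26) and male reproductive tract markers (2 of 3, median 0.18) were mostly above 0 at day 10, and the second list had none tested at day 14. The neuronal marker nSyb was at -0.11 ± 0.16 at day 14 and 0.24 ± 0.17 at day 10 (SE, n = 4 each). By array, the fat body medians ran from -0.58 to 0.08 at day 14 and from -0.61 to 0.17 at day 10, and 0 markers were called. Their part in the subunit values was not tested.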

How the data were processed

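Each array held labelled RNA from treated and from control heads in 2 channels. Per the labels and series text, the authors scanned and quantified slides with GenePix Pro 6.0 and normalised ratios with Acuity 4.0, and dropped saturated or dim spots. The deposited values were taken as log2 ratios, judged from the values themselves, and 2 capped values were left out. The sign of swapped arrays was read as still that of the dyes, since medians over 48 print blocks correlated above 0 in 32 of 32 comparisons between arrays of opposite orientation (0.082 to 0.84). Each comparison set named rows of an array against unnamed rows of another, and every pair of arrays entered both ways. The comparisons are therefore not independent. The sign of the swapped arrays was turned here, after each array was centred on its median. Current symbols came from the RefSeq table of Release 6 plus ISO1 MT, and 14894 of 15116 single-gene rows of the deposited table matched it. The 96 rows of the 41 subunits were averaged per gene and array. No coordinates or sequences are given.

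limma 3.58.1 in R 4.3.3 fitted all 8 arrays with a mean per day and a dye term per gene, and p values were adjusted by Benjamini-Hochberg over all features tested, named genes and unnamed spots. Each gene had a single estimate of spread for both days. Day 14 standard errors therefore also carry the day 10 spread. Before the dye term was taken out, that spread was mostly wider (median SD 0.48 against 0.18). Where a gene lacked values, its fitted ratio can differ from the mean of its arrays, because the dye term draws on both days. An adjusted p under 0.05 counted as a call. The scripts were tested on simulated arrays before use. The members, the lists, the tests and the naming rule were chosen with earlier results of these data known. The rule names, in each comparison, the 2 tested subunits of each complex with the smallest p, every subunit with an unadjusted p under 0.05, and all tested subunits of complexes II and III. Subunits named beyond it are counts of a few or were chosen after their values were seen.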

Additional observations from a re-analysis of the deposited data

Results flagged for a closer look

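levy at day 10 was -0.23 on replicate 3, while the other 3 arrays lay between 0.17 and 0.24. The gap of the lowest array to the next was 0.85 of the range, past Dixon's critical value for 4 samples. Chance alone passes that value in about 5% of such groups, and 35 groups of subunit values were examined. Day 10 replicate 3 was also the array with 28 of 32 subunits below 0. Without it, the day 10 ratio of levy was 0.22 in place of 0.10.

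ATPsynD was below 0 on every day 14 array and above 0 on every day 10 array with a value. The difference was tested directly and was -0.45 ± 0.20 (SE, n = 4 and 3), with an adjusted p of 0.77 in limma. Day 10 replicate 3 has no value for this gene, so its sign there is not known.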

How the results depend on the processing

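No subunit passed the adjusted threshold under any alternative that turned the swapped arrays, and 0 features were called in them except at day 14, with 39 when arrays were scaled to one spread and 70 with each day fitted alone (0 subunits in either). With swapped arrays left as deposited and no dye term, 698 features and 6 subunits were called at day 10: COX4 at 0.76, SdhAL at 0.62, ND-42 at 0.82, ND-39 at 0.76, ND-51L2 at 0.73 and COX6AL at -0.49. In that setting the day 14 median was 0.071, and an unadjusted p under 0.05 was found for 3 subunits at day 14, 14 at day 10 and 4 between the days. That count at day 10 was 0 without centring, with arrays scaled, with print-block medians subtracted, without a dye term and with each day fitted alone. In the difference it was 0 without centring, with arrays scaled, with print-block medians subtracted, with values required on all 4 arrays, and with the replicate number as a block. Leaving out each array in turn gave 0 to 2 subunits at day 10 and 0 to 4 in the difference. Medians then ran from -0.099 to 0.0069 at day 14, from 0.029 to 0.17 at day 10 and from -0.27 to -0.030 between the days.

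Single subunits that turned sign were mostly close to 0. Left as deposited, values at day 14 were 0.12 for ATPsynD, 0.18 for ATPsynE, 0.18 for ATPsyngamma, 0.40 for COX4, 0.29 for ND-51, 0.0020 for SdhAL, 0.12 for SdhC, 0.096 for SdhD, -0.065 for ND-20 and -0.036 for UQCR-6.4. At day 10 they were 0.027 for COX7AL, 0.48 for ND-51, 0.35 for SdhCL and 0.040 for SdhD, and the difference of ATPsyngamma was 0.00013. With print-block medians subtracted, day 10 values were -0.055 for ATPsyngamma, 0.034 for COX6AL, -0.038 for SdhAL and -0.012 for levy, SdhC was at 0.037 at day 14, and the difference of SdhD was -0.031. With arrays scaled, COX6AL was at 0.061 at day 10 and the difference of SdhD was -0.0058. Without centring, ND-20 was at -0.066 and UQCR-6.4 at -0.024 at day 14. SdhC at day 14 was 0.026 with each day fitted alone and 0.0037 with the median of the rows. The filter on clones, chosen after the data were seen, put SdhC at 0.038 at day 14 and 0.043 at day 10, with a difference of -0.0058. With the replicate block the difference of UQCR-6.4 was 0.018. Whether replicate numbers pair the days was not settled: deviations of same-numbered arrays correlated at 0.062, 0.42, 0.39 and 0.097, and 2 of the 4 day 10 arrays correlated best with their own number. Same-numbered arrays also share a dye orientation. With deviations taken within an orientation, the correlations were 0.069 for replicates 1 and 2 and 0.068 for replicates 3 and 4. In all, 478 of 512 single values kept their direction and side of the threshold, and the cause of the other changes was not tested. Leaving out an array makes the dye orientations of its day uneven, and the dye term then weights the arrays unequally. With single arrays left out, sign changes occurred for ATPsynE (-0.28 to 0.0055), COX4 (-0.24 to 0.081), COX6AL (-0.036 to 0.28), ND-20 (-0.077 to 0.17) and SdhC (-0.047 to 0.040) at day 14. At day 10 they occurred for COX6AL (-0.17 to 0.14), ND-51 (-0.15 to 0.034), SdhAL (-0.016 to 0.25), SdhC (-0.38 to 0.054) and SdhCL (-0.42 to 0.36). In the difference they occurred for COX6AL (-0.030 to 0.29), SdhC (-0.014 to 0.33), SdhD (-0.021 to 0.15) and UQCR-6.4 (-0.42 to 0.018). Of the subunits on the array, 12 at day 14 and 6 at day 10 had too few arrays for a test.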
